A study of Mus musculus with 37 samples.

Results

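The genes described here are 30 genes of cholesterol and fatty acid synthesis, named in advance by symbol and found in the gene column of all 4 expression tables, which hold 24411 genes each. They comprise 7 enzymes of the mevalonate arm, 11 enzymes from squalene to cholesterol, 5 regulators of the SREBP transcription factors, 4 fatty acid synthesis enzymes and 3 genes of sterol transport and efflux. The study, in mouse, asked what changes in neurons when Tet2, an enzyme that oxidises 5-methylcytosine, is lost or raised. RNA was sequenced in 37 libraries from 4 experiments. The first used hippocampal neuronal nuclei of strain C57/Bl6, from 4 WT animals carrying Tet2fl/fl and from 3 animals with genotype CamKIIaCreERt2;Tet2 cKO, in which the inducible Cre is driven by a promoter of excitatory forebrain neurons. WT and cKO animals both carried the floxed allele, per the design text. The second, called the first knockdown here, used C57/Bl6 primary neuron cultures from embryonic day 17 infected with lentivirus, 6 libraries with shLuciferase and 6 with shTet2. The third, called the second knockdown, used primary neurons with 6 control libraries labelled shLuc and 6 libraries labelled Tet2 KD. Their column names read shLucif-3d and shTet2-3d and do not say what 3d stands for. The last used primary neurons with synGFP or Tet2 OE, 3 libraries each. The labels of the last 2 experiments give no strain or age, and no label says whether libraries of a group came from separate cultures, so p-values measure the spread between these libraries, which may be technical.

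Cholesterol is made in the brain itself, because the blood-brain barrier keeps out circulating lipoproteins, and neurons in the adult take much of theirs from astrocytes in particles built on apolipoprotein E. When membrane sterol is low, the escort protein Scap carries the SREBP precursors (Srebf1, Srebf2) from the endoplasmic reticulum to the Golgi, where they are cut and released. The freed factors switch on sterol and fatty acid enzymes. Insig1 and Insig2 hold Scap back when sterol is plentiful, and sterol-activated LXR receptors raise the efflux genes Abca1 and Apoe together with Srebf1.

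The deposited values are read counts divided by a size factor per library, called normalized counts below. Fold changes are on the log2(normalized count + 1) scale, treated or mutant over control, with adjusted p-values from limma with Benjamini-Hochberg correction over all genes tested in an experiment. A gene is called when its adjusted p is under 0.05. Libraries held 6377244 to 14882249 reads in the nuclei, 2709421 to 43788798 in the first knockdown, 4785087 to 22781534 in the second, 16988077 to 48321564 in synGFP and 66684922 to 73220675 in Tet2 OE. Tet2 itself was lower in every Tet2 KD library (88.2 to 296) than in any shLuc library (348 to 528). In the nuclei it was 484 to 866 in cKO against 893 to 1070.4 in WT (exact two-sided permutation p = 0.0286, the smallest this design allows). In the overexpression experiment it was 2815 to 5592 against 876 to 2391 (exact p = 0.1, the smallest possible). By limma, Tet2 was called in the second knockdown (adjusted p = 0.000113). It was not called in the nuclei (adjusted p = 0.632) or the overexpression experiment (adjusted p = 0.116). In the first knockdown Tet2 was 315 to 672 in the libraries labelled shTet2 and 167 to 719.9 in shLuciferase (exact p = 0.667), so the targeted gene does not check those labels. In that experiment shTet2 3, shTet2 6 and shLuciferase 4 each stood alone at the end of 1 of the first 3 principal components (-181, -168 and -149, which hold 19.8%, 17.5% and 13.7% of the variance), and they were the 3 shallowest libraries. Excitatory neuron markers were detected in every group, with summed normalized counts of 28529 to 33560 over 12 markers in the nuclei.

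Promoter sequences are shown for some of the genes described below. RefSeq windows of 250 bases before an annotated start (GRCm38.p6) were found for 24 of the 30 genes. Printed are 7 genes with a single annotated start, chosen by hand and cut to the longest stretch that no GENCODE exon covers. Of these, Hmgcs1 was not called in any experiment below, and some called genes, such as Dhcr7, are not printed. Capitals mark the sterol regulatory element core TCACNCCAC, to which SREBP binds, the E-box CACGTG, and the CCAAT box, the site of NF-Y, a frequent partner of SREBP. All were searched on both strands, and each stretch is printed on the strand of its gene.
Hmgcs1, chr13:119690101-119690350, plus strand: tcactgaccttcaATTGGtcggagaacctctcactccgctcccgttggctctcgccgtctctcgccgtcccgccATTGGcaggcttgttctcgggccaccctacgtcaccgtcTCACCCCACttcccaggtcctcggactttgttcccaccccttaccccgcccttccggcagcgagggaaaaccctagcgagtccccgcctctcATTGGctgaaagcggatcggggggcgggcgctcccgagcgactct
Mvk, chr5:114444061-114444268, plus strand: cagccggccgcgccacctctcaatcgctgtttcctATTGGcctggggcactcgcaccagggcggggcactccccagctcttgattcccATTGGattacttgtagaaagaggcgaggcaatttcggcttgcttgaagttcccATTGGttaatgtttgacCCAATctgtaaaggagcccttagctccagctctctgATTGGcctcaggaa
Hsd17b7, chr1:169969242-169969408, minus strand: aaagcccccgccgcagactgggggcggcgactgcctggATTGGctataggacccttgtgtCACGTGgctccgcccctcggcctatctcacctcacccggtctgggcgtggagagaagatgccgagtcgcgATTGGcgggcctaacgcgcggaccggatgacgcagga
Srebf2, chr15:82147019-82147180, plus strand: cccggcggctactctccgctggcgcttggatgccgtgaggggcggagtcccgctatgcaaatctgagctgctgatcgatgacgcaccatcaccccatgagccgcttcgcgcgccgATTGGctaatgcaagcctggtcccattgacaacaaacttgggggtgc
Insig1, chr5:28071162-28071362, plus strand: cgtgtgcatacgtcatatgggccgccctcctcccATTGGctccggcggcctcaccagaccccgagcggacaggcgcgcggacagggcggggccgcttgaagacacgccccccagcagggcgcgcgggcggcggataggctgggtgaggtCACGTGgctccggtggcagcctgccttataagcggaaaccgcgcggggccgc
Fasn, chr11:120824548-120824797, minus strand: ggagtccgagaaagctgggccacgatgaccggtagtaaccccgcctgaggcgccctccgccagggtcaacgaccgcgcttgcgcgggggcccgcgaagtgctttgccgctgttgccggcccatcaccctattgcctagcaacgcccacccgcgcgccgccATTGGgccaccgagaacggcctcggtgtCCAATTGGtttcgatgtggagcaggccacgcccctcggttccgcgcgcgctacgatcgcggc
Abca1, chr4:53159896-53160145, minus strand: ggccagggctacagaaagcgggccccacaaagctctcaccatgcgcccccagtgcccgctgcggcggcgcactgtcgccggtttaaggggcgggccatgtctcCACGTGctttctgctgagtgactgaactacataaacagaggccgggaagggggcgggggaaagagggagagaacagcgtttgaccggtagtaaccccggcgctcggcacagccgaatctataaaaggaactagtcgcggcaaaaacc
The CCAAT box was present in 20 of the 34 windows of the 24 genes, against 33.8% of all 32851 promoter windows of that length. By gene, 19 of 24 had it in at least 1 window, against 37.5% of all genes. The GC box GGGCGG, bound by Sp1 and not marked, was in 23 of 34 windows, against 32.7% of all. The exact core TCACNCCAC was found only in Hmgcs1, in 1.05% of all windows, and CACGTG in 6 of 34 windows, against 6.02%. In Fasn a CCAAT on each strand overlap as CCAATTGG. Mvk held 5 CCAAT matches in the printed stretch, the highest number among the 7 printed. These are matches of letters, and no measurement of binding or methylation at these positions was analysed here.

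In control libraries the genes spanned a wide range of level. Per kb of exon, Apoe, the lipoprotein of astrocyte sterol particles, was first of the 30 in the nuclei (2532 ± 641 normalized counts per kb, SD, n = 4), in the first knockdown (10683 ± 3922, n = 6) and in the second (12667 ± 807, n = 6). Scd2, the main brain stearoyl-CoA desaturase, was second in the nuclei (598 ± 75.5) and in the first knockdown (1597 ± 299), whereas Acat2 (1725 ± 179) was second in the second knockdown. The sterol enzymes were spread through the order. Hmgcs1 and Acat2 ranked 3 and 4 in the first knockdown, and Acat2, Fdps and Fdft1 2, 3 and 4 in the second. The synGFP cultures had a different order. Insig1 was first there (13259 ± 4519.8 per kb, n = 3), ahead of Hmgcs1 (3341 ± 1753), with no overlap between their library ranges of 8371 to 17287 and 1817 to 5257. Apoe was sixth at 785 ± 158 per kb. The same Insig1 ranked 19 of 30 in the nuclei, 13 in the first knockdown and 15 in the second. The tables were normalized separately, so only the order within a table can be read.

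**Figure D1:**
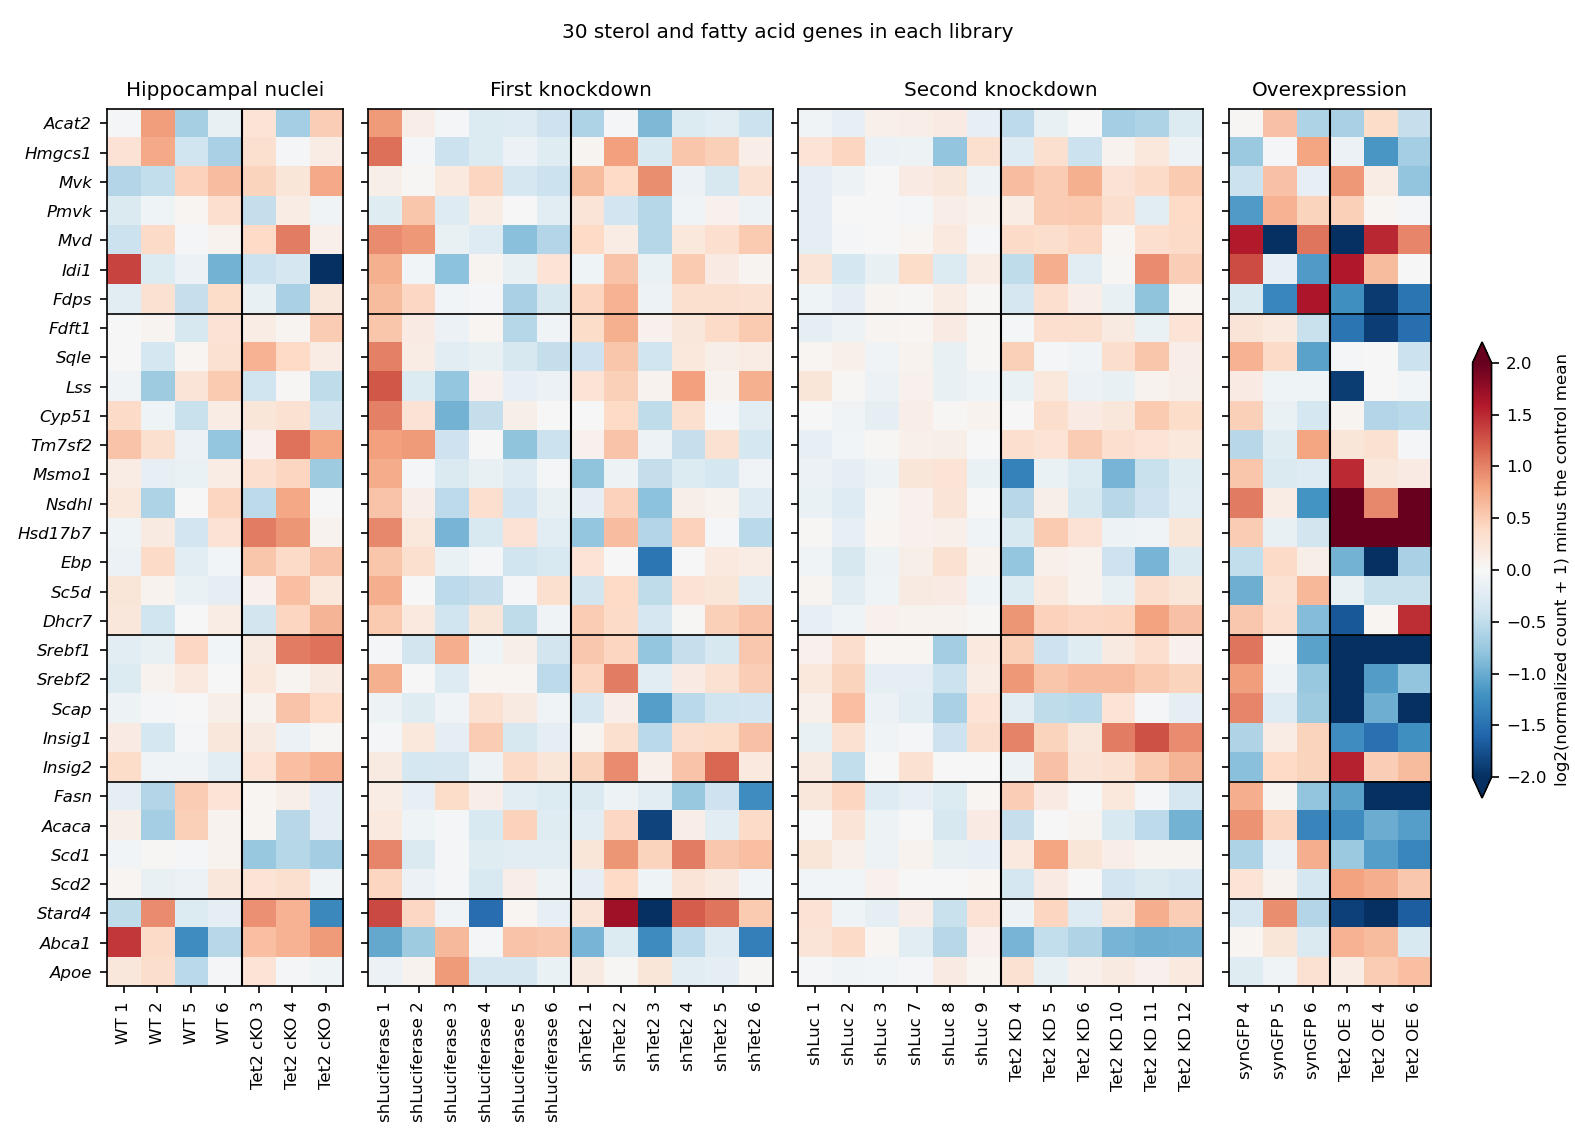
Each cell is the log2(normalized count + 1) of a gene in a library minus the mean of the control libraries of its experiment, with red above and blue below and the scale clipped at 2. Rows are the 30 genes in 5 groups parted by lines (mevalonate arm, squalene to cholesterol, SREBP regulators, fatty acid synthesis, transport and efflux), and columns are libraries with controls left of the line. The leftmost shLuciferase library is red for most sterol enzymes, and Srebf2 and Insig1 are red in all 6 Tet2 KD libraries.

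The second knockdown changed 11 of the 30 genes. With Tet2 KD 7 of the 30 were higher: the mevalonate enzymes Mvk and Mvd, the late enzymes Cyp51, Tm7sf2 and Dhcr7, the transcription factor Srebf2 and the retention protein Insig1. The other 4 were lower: Acat2, Msmo1, Nsdhl and the cholesterol exporter Abca1. Of all 16164 genes tested 25.9% were called, 12.6% higher and 13.2% lower, so 7 and 4 of 30 are to be read against that. The 30 genes had a median log2 fold change of 0.11, against -0.022 over all genes, and 20 of 30 were above 0, against 48% of all genes.

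In the mevalonate arm, Mvk, the kinase that phosphorylates mevalonate, ran from 1199 through a median of 1332 to 1610.1 normalized counts in shLuc and from 1685 through 1961 to 2246 in Tet2 KD. The groups did not overlap, and the log2 fold change was 0.51 (SE 0.10, adjusted p = 0.000924, limma). Mvd, the decarboxylase that gives isopentenyl diphosphate, had 1867, 2107 and 2425 (lowest, median, highest) in shLuc and 2185, 2735 and 2814 in Tet2 KD. It was higher by 0.32 (SE 0.092, adjusted p = 0.0154), with Tet2 KD 10 as the only library inside the control range. Acat2, which makes the acetoacetyl-CoA that feeds the pathway, went the other way, with 3893, 4433 and 4899.9 in shLuc and 2721, 3325 and 4396 in Tet2 KD. Its fold change was -0.37 (SE 0.12, adjusted p = 0.0259) and the groups overlapped. Hmgcs1, the synthase that condenses acetyl-CoA with acetoacetyl-CoA, had a fold change of -0.033 with medians of 4166 and 3867. Pmvk, Idi1 and Fdps were not called either, with fold changes of 0.28, 0.24 and -0.13.

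Among the 11 enzymes from squalene to cholesterol, 3 rose and 2 fell. Dhcr7, which completes cholesterol by reducing 7-dehydrocholesterol, had the smallest adjusted p of the 30 genes. It ran from 1553 through 1785 to 1846 in shLuc and from 2311 through 2493 to 3183 in Tet2 KD, without overlap (log2 0.59, SE 0.10, adjusted p = 2e-04). Tm7sf2, a sterol C14-reductase, was 478 to 582 in shLuc (median 538) and 620.2 to 759 in Tet2 KD (median 664), again without overlap (0.32, SE 0.095, adjusted p = 0.0165). Its exons share 532 bases with those of Vps51 on the same strand, so its reads could be split between them. Cyp51, the lanosterol demethylase, had medians of 3045 and 3676 with overlapping ranges of 2656 to 3309.9 and 3025 to 4320.3 (0.27, SE 0.10, adjusted p = 0.0429). Groups did not overlap for 3 of the 30 genes, all higher (Mvk, Tm7sf2, Dhcr7), against 5.7% of all genes in that direction, and for none that were lower, against 6.53%. The enzymes that fell act between Cyp51 and Dhcr7. Msmo1, the C4-methyl oxidase, had 2004, 2099 and 2741 in shLuc and 885, 1766 and 2076 in Tet2 KD (-0.56, SE 0.17, adjusted p = 0.0194). Nsdhl, which works on the same C4 methyl groups, had 1473, 1787 and 2109 against 1195, 1365 and 1910 (-0.33, SE 0.12, adjusted p = 0.0483). Fdft1, Sqle, Lss, Hsd17b7, Ebp and Sc5d were not called, and their fold changes lay from -0.37 (Ebp) to 0.23 (Sqle).

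Of the regulators, Srebf2, which encodes the SREBP that mainly drives sterol genes, had 619, 825 and 1135 in shLuc and 1130.3, 1246 and 1524 in Tet2 KD. The ranges touched at shLuc 2 and Tet2 KD 12, and the fold change was 0.60 (SE 0.13, adjusted p = 0.00193). Insig1, which is itself a classical SREBP target, had 774, 999.6 and 1313 against 1215, 2020 and 2509.5 (0.82, SE 0.16, adjusted p = 0.000926). Tet2 KD 6 was the only treated library within the control range. Insig2, Srebf1 and Scap were not called, with fold changes of 0.37, 0.07 and -0.21. None of the fatty acid enzymes was called: Fasn, Acaca, Scd1 and Scd2 had fold changes of 0.082, -0.36, 0.24 and -0.20.

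Abca1, the ABC transporter that loads cholesterol onto apolipoproteins, was the largest decrease of the 30. It had 141, 216 and 272 in shLuc and 105, 108 and 147 in Tet2 KD, with only shLuc 8 reaching into the treated range (-0.82, SE 0.17, adjusted p = 0.00111). Apoe, another efflux gene, had medians of 26451 and 29914, and the sterol carrier Stard4 525 and 657, and neither was called. Summed astrocyte markers (15 genes, none at 0 in all libraries of a group) were 17936 to 19422 in shLuc and 13093 to 15092 in Tet2 KD, with 4 markers lower, among them Aldoc, Acsbg1 and Gfap, and 1 higher, Sox9. Fewer astrocytes and less RNA per astrocyte cannot be told apart in such cultures, and the part of this in the Abca1 result was not tested. Summed oligodendrocyte lineage markers (12 genes, with Mobp at 0 in both groups, Opalin in shLuc and Mag in Tet2 KD) were 4139.8 to 5251 and 2146 to 5307, with 3 lower. Vascular and meningeal markers (12 genes, Flt1 at 0 in Tet2 KD) summed to 191 to 292 and 91.8 to 159, with 3 lower. Of 12 excitatory neuron markers 1 was higher and 4 lower (sums 20518 to 25452 and 14849.6 to 21748), and of 8 inhibitory ones 4 were higher and 1 lower (sums 10174 to 14458 and 13355 to 14419). The part of these in the results for the 30 genes was not tested.

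**Figure D2:**
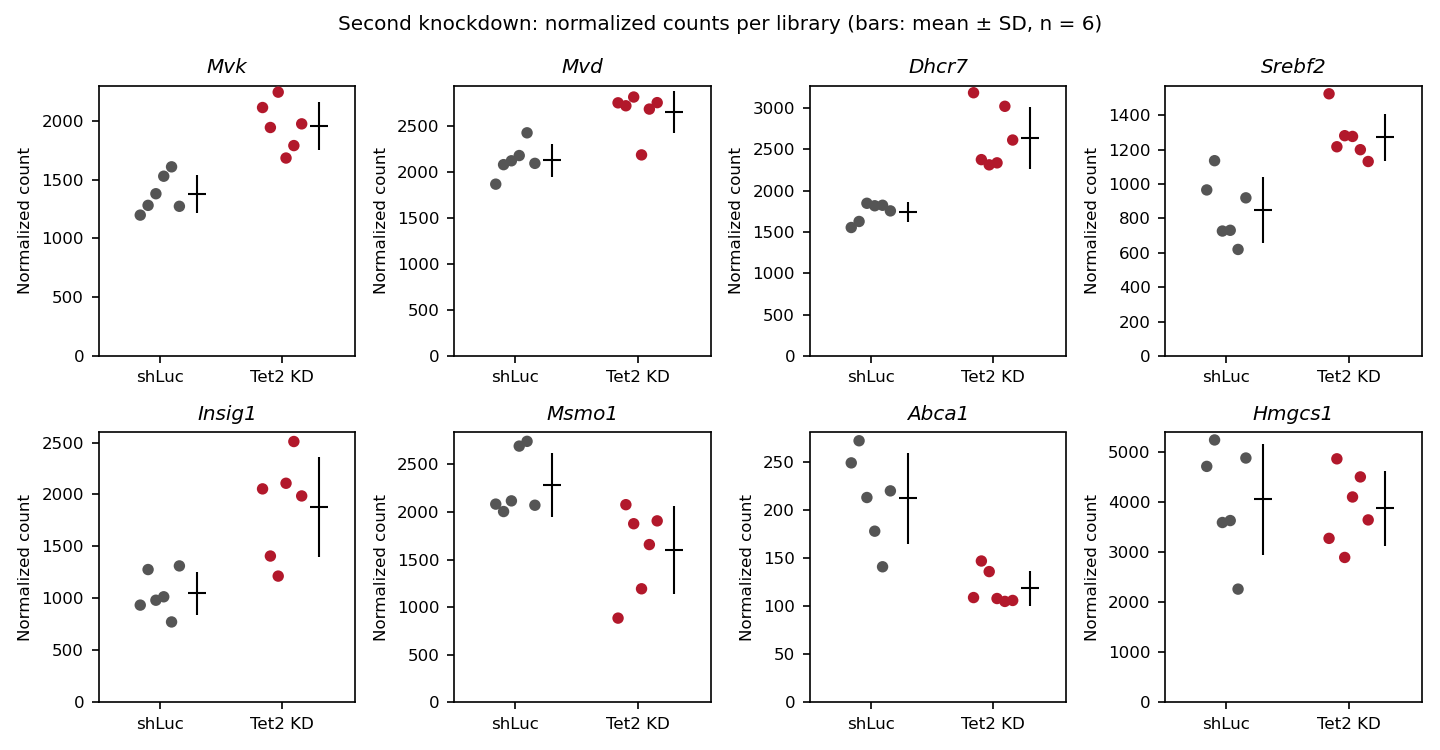
Normalized counts of 8 genes in each of the 6 shLuc (grey) and 6 Tet2 KD (red) libraries of the second knockdown, with the mean and SD of each group as a bar. The groups do not overlap for Mvk and Dhcr7, touch for Srebf2, and overlap for Hmgcs1.

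The libraries of this experiment carry column numbers in 2 runs, 1 to 6 and 7 to 12, each with 3 shLuc and 3 Tet2 KD libraries. Within columns 1 to 6, 2 genes were higher (Mvk, Dhcr7) and 1 lower (Abca1), beside 442 higher and 707 lower of all 16158 genes tested. Within columns 7 to 12, 3 were higher (Dhcr7, Srebf2, Insig1) and 5 lower, beside 1299 and 1356 of all 16109. Insig1 had a fold change of 0.53 in the former (adjusted p = 0.13) and 1.11 in the latter (adjusted p = 0.00116), and Mvk 0.71 (adjusted p = 0.00887) and 0.31 (adjusted p = 0.15). Dhcr7 (0.63 and 0.56) and Abca1 (-0.9 and -0.73) were called in both. The count of lower genes was 2 without any 1 of shLuc 3, shLuc 7, shLuc 8, Tet2 KD 4 or Tet2 KD 11, 1 without Tet2 KD 10, and 6 without Tet2 KD 5. Over all genes the lower count in these runs lay between 1788 (without shLuc 7) and 2393 (without Tet2 KD 5). Correcting for exon length and GC content gave 10 higher, with Sqle, Insig2, Scd1 and Stard4 added, and 2 lower. Of all 15490 genes tested under that correction, 2399 were higher and 1893 lower. Under it Mvd lost its call, with a fold change of 0.16 (adjusted p = 0.228), as did Msmo1 and Nsdhl. Over 26 alternatives Dhcr7 and Abca1 were called in all 26, Cyp51 in 14 and Nsdhl in 9. In the authors' deposited table for this experiment 13 of the 30 genes passed an adjusted p of 0.05, where 30.5% of all genes did. Of these 9 were higher and 4 lower, the 2 further genes in the authors' deposited table being Pmvk (0.30, SE 0.12, adjusted p = 0.0448) and Insig2 (0.38, SE 0.15, adjusted p = 0.0427).

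In the first knockdown none of the 30 genes was called, against 1.93% of all 18315 genes tested with limma (0.655% higher, 1.28% lower). The median fold change of the 30 was 0.024, against 0.092 over all genes, and 17 of 30 were above 0. At an unadjusted p under 0.05 there were 7, against 14.2% of all genes, and edgeR's quasi-likelihood test and DESeq2 called 0 as well. The smallest p belonged to 3 genes. Scd1, a stearoyl-CoA desaturase, had 557, 587 and 1327 in shLuciferase and 799.6, 1009 and 1372 in shTet2 (0.62, SE 0.20, adjusted p = 0.143). Fasn, which builds palmitate, had 1433, 1715 and 2237 against 728, 1349.8 and 1608 (-0.50, SE 0.18, adjusted p = 0.192). Insig2 had 237, 314 and 395 against 325, 435 and 672 (0.57, SE 0.22, adjusted p = 0.242). All 3 overlapped between groups, as did the rest of the 30, where 0.863% of all genes lay wholly above and 1.39% wholly below their controls.

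Among the controls of the first knockdown the library shLuciferase 1 stood apart for the sterol enzymes. It was the highest of the 6 shLuciferase libraries for 15 of the 18 sterol synthesis enzymes and 19 of the 30 genes, whereas it was the highest for 23% of all genes. It was also shallow, with 3465049 reads where the shLuciferase libraries held 3029938 to 43788798. Hmgcs1 was 11549 in it and 4002 to 5282 in the other 5. Lss, lanosterol synthase, was 897 against 223 to 403, and Sqle, the squalene epoxidase, 5957 against 2124 to 3296. The library exceeded the median of the other 5 controls by more than 1.5 times for 16 of 18 sterol enzymes, against 15% of 9196 genes with a mean of at least 100, and the median ratio was 1.78 against 1.03. Mvk (1.07) and Pmvk (0.837) were the exceptions. The transporter Stard4 (442 against a median of 167), Srebf2 (1235 against 746) and Scd1 (1327 against 586) were high there too, and Abca1 was the lowest of the controls (164 against a median of 486). Insig1 was not high in it (643 against 573), and neither was Srebf1 (369.7 against 358).

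Among the libraries labelled shTet2, shTet2 2 was the highest for 11 of the 18 sterol enzymes (12.2% of all genes), and shTet2 3 was the lowest for 13 (24.7% of all genes). Without shLuciferase 1, Scd1 was called (0.82, adjusted p = 0.00983, limma), and 14 of 18 sterol enzymes had a fold change above 0 in place of 10. Leaving out the control that was highest for Scd1 and most sterol enzymes raises their fold changes by construction. So does leaving out shTet2 3, which is 1 of the 3 libraries dropped next. Without the 3 libraries that stood apart, 16 of 18 were above 0 and none of the 30 was called. With length and GC correction it was 7 of 18. The share of all genes above 0 was 56.5% with all libraries, 55.8% without shLuciferase 1, 57.3% without those 3 and 47.9% with the correction. Summed astrocyte markers were 21309.9 to 34578 in shLuciferase and 18693 to 25214 in shTet2, with 3 of 15 markers lower and 2 above 0, and summed vascular and meningeal markers (12 genes, 1 lower) 428 to 705 and 141 to 285. Their part in these values was not tested.

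**Figure D3:**
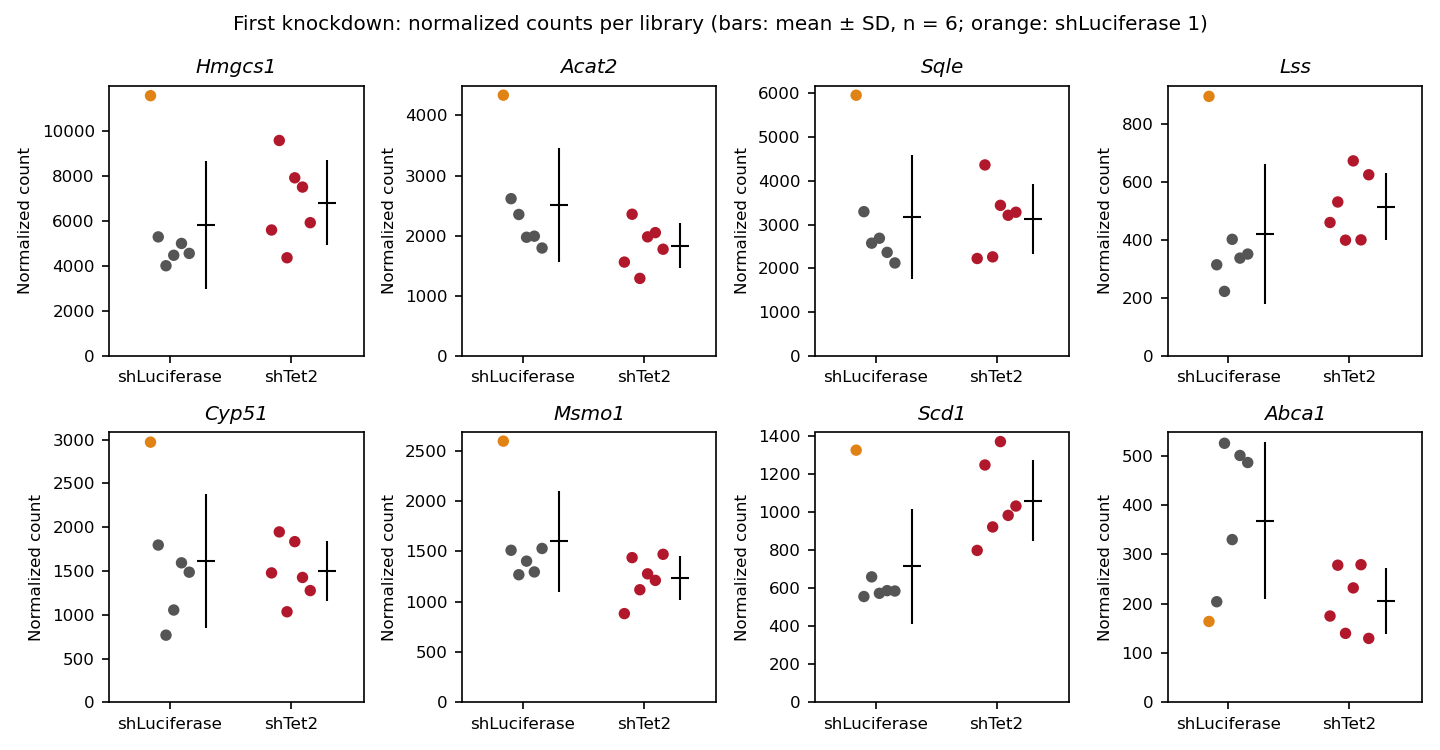
Normalized counts of 8 genes in the 6 shLuciferase (grey, with shLuciferase 1 in orange) and 6 shTet2 (red) libraries of the first knockdown, with the mean and SD of each group as a bar. The orange point is the highest control for all genes shown but Abca1, where it is the lowest.

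The difference between the fold changes of the knockdowns was tested directly on the 15796 genes that passed the filter in both. None of the 30 genes was called (limma, against 1.83% of all), 2 had an unadjusted p under 0.05 against 16.5% of all, and edgeR and DESeq2 called 0. The smallest p belonged to Fasn, with a difference of 0.59, second minus first (SE 0.24, adjusted p = 0.212), Insig1 with 0.63 (SE 0.26, adjusted p = 0.221) and Pmvk with 0.42 (SE 0.21, adjusted p = 0.323). For Abca1, with fold changes of -0.77 in the first and -0.82 in the second, the difference was -0.047. For Dhcr7 the values were 0.27 and 0.59, with a difference of 0.32. Msmo1 and Acat2 had negative fold changes in both, -0.35 and -0.41 in the first, where neither was called. Genes called in the second knockdown and not in the first were thus not shown to respond differently there.

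In the hippocampal nuclei none of the 30 genes was called, and limma called 0% of the 18780 genes tested, where edgeR called 1 and DESeq2 21 higher and 55 lower. At an unadjusted p under 0.05 limma gave 2 of 30, against 6.97% of all genes, and edgeR and DESeq2 called 0 of the 30. None of the 30 passed in the authors' deposited table, in this experiment or in the first knockdown. The fold change was above 0 for 23 of 30 genes, against 44.9% of all genes. Above 0 were 4 of 7 enzymes of the mevalonate arm, 10 of 11 from squalene to cholesterol and all 5 regulators. Of the fatty acid enzymes 1 of 4 was above 0, and of the transport and efflux genes 3 of 3. The count lay between 18 and 24 of 30 over the other settings and left-out libraries, and was 18 both with library totals and without cKO 3. With a mean of at least 10 the share over all genes was 50.1%, and with length and GC correction 53.5%, beside 23 of 30 in each. Srebf1, which encodes the SREBP that mainly drives fatty acid genes, was 302, 316, 467 and 336 in the WT libraries and 398, 711 and 742 in cKO (0.76, SE 0.29, adjusted p = 0.682). Insig2 was 735, 542, 541 and 485 against 689.6, 866 and 922 (0.53, SE 0.24, adjusted p = 0.711). Ebp, the sterol isomerase, was 425, 601, 396 and 443 against 678, 602 and 687 (0.51, SE 0.25, adjusted p = 0.728). Ebp was the only gene of the 30 with every cKO library above every WT library, where 3.55% of all genes were.

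Scd1 lay wholly below in the nuclei, with 163, 171, 164 and 178 in WT and 99.8, 113 and 104 in cKO, as did 3.41% of all genes. Its fold change was -0.67 and it was not called. Scd2, its paralog, was 2921 to 3816 in WT and 3079.9 to 4052 in cKO. Abca1 ran from 104 to 657 among the WT libraries and from 374 to 444 in cKO. Idi1, the isopentenyl diphosphate isomerase, was 218, 70, 78.3 and 43.5 against 62.6, 67 and 6.43, and its lowest value rested on 6 reads. Summed astrocyte markers were 7723 to 14059.9 in WT and 6836 to 11215 in cKO, with 3 of 15 fold changes above 0, a median of -0.44 and none called. Summed inhibitory neuron markers were 4006 to 6865 and 5796 to 7799.9 (6 of 8 above 0), and excitatory ones 29848 to 33560 and 28529 to 31520.2 (3 of 12 above 0). Their part in these values was not tested.

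**Figure D4:**
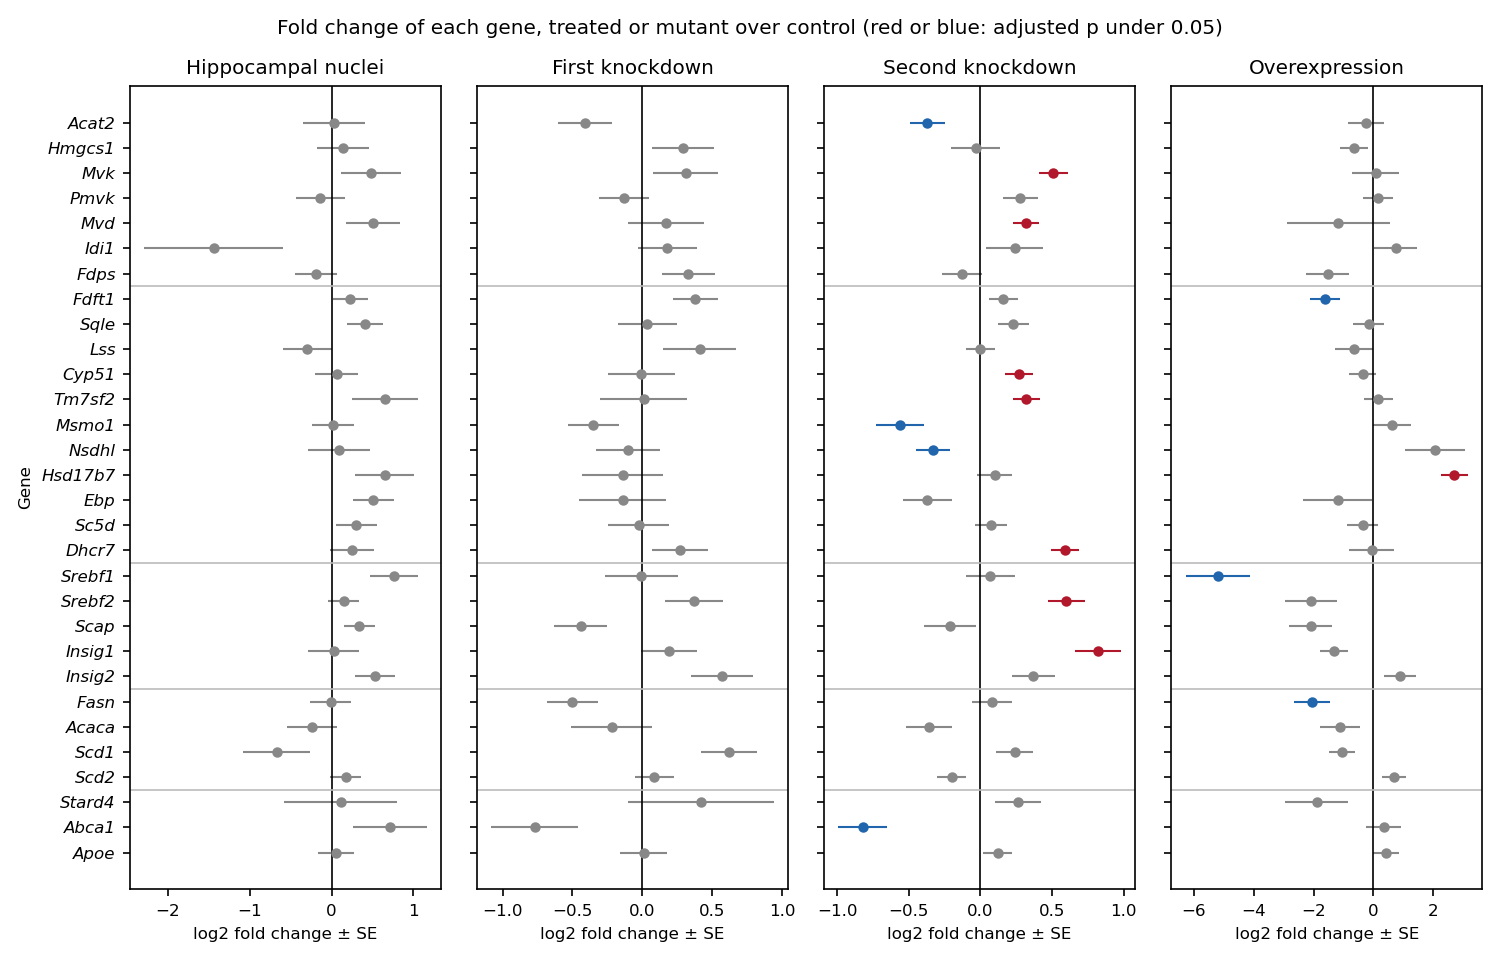
The log2 fold change of each of the 30 genes, treated or mutant over control, with its standard error, in the 4 experiments. Red and blue points have an adjusted p under 0.05 (7 and 4 genes in the second knockdown, 1 and 3 in the overexpression experiment), and the horizontal scale differs between panels.

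With Tet2 OE, 1 of the 30 genes rose and 3 fell. Hsd17b7, the 3-ketosteroid reductase that finishes C4 demethylation, was higher, and Srebf1, Fasn and the squalene synthase Fdft1 were lower. Of all 22399 genes tested 9.96% were called, 6.19% higher and 3.77% lower, and the median fold change of all genes was -0.75, so values are also given less that median. The median was -0.5 with a mean of at least 10, -0.58 with TMM factors and -1.31 with library totals. Values and calls less the median therefore depend on the setting. Normalized counts of the 30 genes summed to 64082, 88192 and 111802 in synGFP and 64894, 49582 and 53918 in Tet2 OE, and Insig1 alone held 40.4% to 49.5% and 25.5% to 31.1% of these sums. Without Insig1 the sums overlapped (38191 to 58334 and 35624 to 48344). Sums of normalized counts depend on the size factors, and over all genes they ran from 22488814 to 52712948 in synGFP and from 52390739 to 68642275 in Tet2 OE. As a share of reads the 30 genes, Insig1 included, held 0.285%, 0.215% and 0.212% in synGFP. In Tet2 OE they held 0.0945%, 0.0946% and 0.0917%, without overlap. Scaled to library totals, the median fold change over all genes was -1.31, so a typical gene lost share of reads as well. The groups did not overlap for 12 of the 30 genes, 3 higher and 9 lower, against 12.5% and 19% of all genes. The fold change was above 0 for 11 of 30, against 35.6% of all genes. It was above 0 for 4 with library totals (24.3% of all genes) and for 18 less the median (50% of all genes). At an unadjusted p under 0.05 there were 8, against 27.8% of all genes.

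Hsd17b7 was 842, 539 and 463 normalized counts in the synGFP libraries and 5307, 2839.9 and 3900.1 in Tet2 OE (2.71, SE 0.45, adjusted p = 0.000844, and 3.45 less the median). It was called under every alternative setting and without each library in turn, with fold changes from 2 to 3.45. The other C4 demethylation enzymes did not pass the test. Nsdhl was 70.2, 37.6 and 14.2 against 229.5, 66.5 and 191, and Msmo1 302, 167 and 170.2 against 577, 241 and 229. Fdft1 was 1111, 1058 and 679.6 against 336, 252 and 325 (-1.62, SE 0.50, adjusted p = 0.0495), and -0.87 less the median, where it was no longer called (adjusted p = 0.289). It was called in 7 of 18 alternatives. Its exons share 774 bases with those of Ctsb on the other strand. Mvd, with 195, 9.41 and 137 against 0, 186 and 128, is listed at 0 in Tet2 OE 3 and allows no direction.

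Of the regulators only Srebf1 was called. It was 696, 334 and 157 in synGFP and 10.3, 4.29 and 11.3 in Tet2 OE, as few as 6 reads (-5.21, SE 1.07, adjusted p = 0.00439, and -4.46 less the median). The call was lost without synGFP 4 (adjusted p = 0.0631) and without synGFP 5 (adjusted p = 0.0758). Srebf2 was 642, 343 and 213 against 16.5, 166 and 209. Scap was 817, 348 and 254 against 58.7, 212 and 74, and its exons share 985 bases with a gene on the other strand. Insig1 was 25891, 43668 and 53468 against 16549.9, 13958 and 16749.7 with a fold change of -1.32. All 3 lay wholly below their controls without passing the test, while Insig2, with 338, 789.6 and 815 against 1756, 842 and 929, lay wholly above. The control libraries differed among themselves: synGFP 4 was the highest and synGFP 6 the lowest for Srebf1, Srebf2, Scap, Fasn and Acaca, and the reverse held for Insig1 and Scd1.

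Of the fatty acid enzymes, Fasn was 1322, 835 and 465 in synGFP and 381, 144 and 129 in Tet2 OE (-2.06, SE 0.61, adjusted p = 0.0402). Less the median it was -1.31 and not called (adjusted p = 0.177). Scd1 was 5360.1, 7563 and 13553 against 4899.7, 3806 and 3309.9 and lay wholly below. Its paralog Scd2 was 7029, 6129.8 and 4565 against 10174, 9597 and 8421 and lay wholly above, and neither was called. Less the median, Scd2 and Insig2 were called higher. Acaca, which makes malonyl-CoA, was 691, 501 and 148 against 155, 187 and 172. Stard4 was 79.4, 192 and 66.5 against 26.8, 21.5 and 31.4, and Abca1 and Apoe had fold changes of 0.34 and 0.42.

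The count of lower genes in this experiment depended on the setting, from 1 with TMM factors to 7 with library totals, and was 0 without synGFP 5. Over all genes the lower counts there were 644, 1800 and 88. Without Tet2 OE 4 or Tet2 OE 6 only Srebf1 remained of the 3, with Fasn and Fdft1 lost. Without synGFP 4 all 3 lost their calls (Fasn -1.69, adjusted p = 0.154), and the 1 lower gene there was Insig1. Of the 30 genes 6 were lower and 1 higher in the authors' deposited table, where 20.2% of all genes passed in either direction, with Fdps (-2.02, SE 0.73, adjusted p = 0.0319), Scap (-2.04, SE 0.71, adjusted p = 0.0265) and Insig1 (-1.38, SE 0.43, adjusted p = 0.0109) added. Fdps was 326, 163 and 1244 in synGFP and 173, 107 and 146 in Tet2 OE, so the control mean leans on synGFP 6. Its exons share 1124 bases with other genes on the same strand, so its reads could be split. Summed astrocyte markers were 77982 to 247689 in synGFP and 221586 to 250103 in Tet2 OE, with 3 of 15 higher, but only 5 of 15 fold changes were above 0 and their median was -0.3. Summed inhibitory neuron markers were 8482 to 9684 and 26201 to 32928, with Gad1 and Gad2 higher, Sst and Slc32a1 lower, 3 of 8 above 0 and a median of -0.71. Oligodendrocyte lineage markers summed to 8351 to 11594 and 4964 to 6308, with 1 of 12 higher and 2 lower. The part of these in the values above was not tested.

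**Figure D5:**
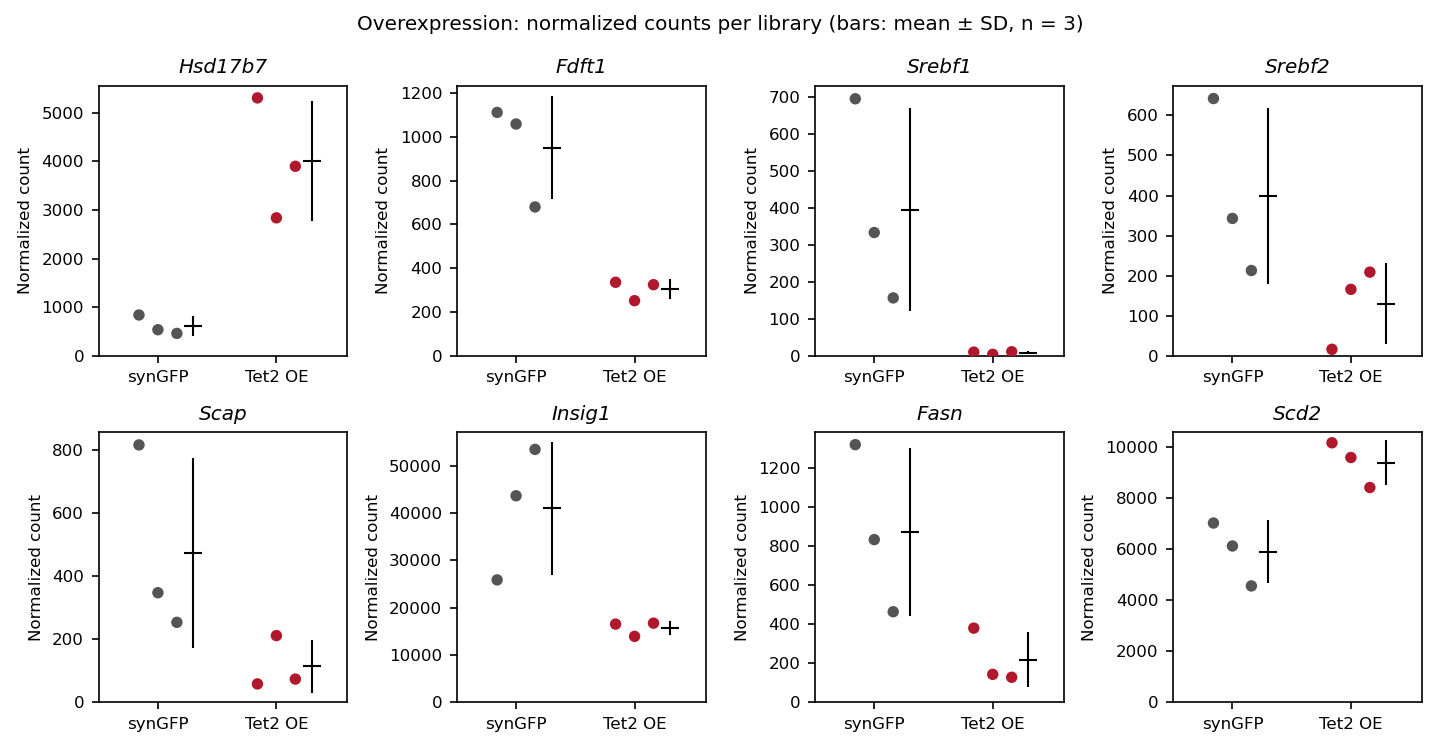
Normalized counts of 8 genes in the 3 synGFP (grey) and 3 Tet2 OE (red) libraries, with the mean and SD of each group as a bar. Hsd17b7 and Scd2 lie wholly above and the other 6 wholly below their controls, with Srebf1 near 0 in Tet2 OE.

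The wider pathway was described with 4 lists of other genes. Of 28 other genes of fatty acid synthesis, elongation and desaturation, 7 were higher and 4 lower in the second knockdown, beside 12.6% and 13.2% of all genes. Elovl5, an elongase of polyunsaturated fatty acids, went from 558 ± 58.6 to 1129 ± 255 (SD, n = 6 each; 0.99, SE 0.13, adjusted p = 1.65e-05, limma). Acss2, which makes acetyl-CoA from acetate, rose by 0.80 (SE 0.12, adjusted p = 6.91e-05), whereas Acly, which makes it from citrate, fell by 0.66 (SE 0.12, adjusted p = 0.000309). Thrsp, a lipogenic protein regulated with the SREBP targets, went from 219.7 ± 25.9 to 76.3 ± 22 (-1.55, SE 0.18, adjusted p = 3.22e-06). In the first knockdown the same list gave 1 higher, Elovl5 (0.69, SE 0.18, adjusted p = 0.0464), and 1 lower, Thrsp, which went from 526 ± 61.5 to 156 ± 53.9 (-1.81, SE 0.23, adjusted p = 0.000149).

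Of 30 other genes of sterol uptake, transport, storage and turnover, 7 were higher and 5 lower in the second knockdown (12.6% and 13.2% of all genes) and 0 and 2 in the first (0.655% and 1.28%). The lysosomal cholesterol esterase Lipa rose by 1.29 (SE 0.16, adjusted p = 1.01e-05, limma) and Nr1h2, which encodes an LXR receptor, by 0.63 (SE 0.10, adjusted p = 0.000159). Abcg1, an LXR target and sterol exporter like Abca1, fell by 0.88 (SE 0.13, adjusted p = 7e-05), and the sterol esterifying enzyme Soat1 fell by 0.79 (SE 0.14, adjusted p = 0.000381). Lrpap1, a chaperone of lipoprotein receptors, fell by 1.18 in the second knockdown (SE 0.11, adjusted p = 2.85e-07) and by 0.57 in the first (SE 0.14, adjusted p = 0.0449). With Tet2 OE, 2 were higher and 4 lower (6.19% and 3.77% of all genes), among them Vldlr, a lipoprotein receptor (3.32, SE 0.42, adjusted p = 7.21e-05), and Cyp46a1, the neuronal enzyme that hydroxylates cholesterol for export (-2.36, SE 0.60, adjusted p = 0.0184). SREBP processing and sterol sensing gave 1 higher and 2 lower of 17 in the second knockdown, Vcp against Erlin2 and Sec23a, and the isoprenoid branch 1 higher and 4 lower of 11. With Tet2 OE these lists gave 2 higher and 0 lower, and 1 higher and 0 lower, and the fatty acid list 2 higher and 2 lower. In the nuclei no gene of these 4 lists was called.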

How the data were processed

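RNA-seq of 37 libraries was analysed from 4 tables. The deposited signal values are gene counts that the authors divided by 1 size factor per library, checked from the values: 100% came out as whole reads within 0.01. The authors' deposited log2 fold changes, their standard errors, the score dividing one by the other, and p-values come from a comparison per table. The nuclei table's fold changes are control over mutant and were turned round here. STAR, RSEM, DESeq2 and build mm10 are named, without versions, in the submitters' processing notes. Libraries were polyA-selected and strand-specific, per the labels' protocols, and whether counting used strand is not given in the sources used here. Reads of close copies (Scd1 and Scd2) or overlapping genes could be split between them.

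Values were tested as log2(value + 1) with limma 3.58.1 (limma-trend, R 4.3.3), two-sided, per experiment, on genes with a mean of at least 0.5, with Benjamini-Hochberg adjustment and a threshold of 0.05. The difference between knockdowns was an interaction in 1 fit. Alternatives were TMM, upper-quartile and total scaling, voom, edgeR 4.0.16 and DESeq2 1.42.0 on the recovered reads, pseudocounts of 0.5 and 8, no filter or a mean of at least 10, length and GC correction, and leaving out each library. Column sets, the 3 libraries standing apart and subtraction of the median were added after seeing the data. In simulated data known changes were put into genes with a mean of at least 50 (for the difference between knockdowns, in the first). A change of 1 on the log2 scale was recovered for 38.7% of the changed genes in the nuclei (17668 genes tested) and 49.5% in the first knockdown (17596). It was recovered for 92.1% in the second (15940) and 24.7% for the difference between knockdowns (13276). In the overexpression experiment (22055) it was 0%, and a change of 2 was recovered for 14%.

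Columns of the second knockdown and the overexpression experiment match groups and not single samples, so their libraries are named by column number. No 2 libraries were duplicates. Fold change, SE and adjusted p are given for called genes or, where fewer than 3 were called, the 3 with the smallest p, and for called genes of other lists, up to 3 per direction. The members, lists and tests were chosen with earlier results of these data known. Promoter windows are RefSeq's (GRCm38.p6).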

Additional observations from a re-analysis of the deposited data

Results flagged for a closer look

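Dixon's test was run on 150 groups of 4 to 6 libraries, which are not independent, because the genes were read in the same libraries. In 14 groups 1 library of a gene lay far from the rest, where chance alone would give about 5% of independent groups. Of these, 7 were highs of shLuciferase 1 in the first knockdown: Hmgcs1 (11549 normalized counts, next 5282), Sqle (5957, next 3296), Acat2 (4338, next 2616), Msmo1 (2595, next 1529), Scd1 (1327, next 660.4), Srebf2 (1235, next 776) and Lss (897, next 403). In the same group shLuciferase 3 was high for Srebf1 (626, next 412) and Apoe (39393, next 22993). Ebp was low in shTet2 3 (72.7, next 198). In the second knockdown Srebf1 was low in shLuc 8 (344, next 574), Mvd low in Tet2 KD 10 (2185, next 2683) and Scd1 high in Tet2 KD 5 (727, next 499). In the nuclei Stard4 was high in WT 2 (129.7, next 58.6).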

How the results depend on the processing

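In the nuclei and in the difference between knockdowns 0 of the 30 genes were called in each alternative run. In the first knockdown 1 was higher (Scd1) with voom, and 0 to 1 when 1 library was left out. With the replicate number as a block (replicate block) 0 were called, and 57 genes of all were higher and 149 lower in place of 120 and 234. Same-numbered libraries deviated with correlations of -0.139 to 0.0577, so no pairing by number was detected. Whether same-numbered libraries shared a culture cannot be told from these values. In the second knockdown 7 higher became 2 in columns 1 to 6 and 3 in columns 7 to 12. The 4 lower became 2 with length and GC correction, 1 in columns 1 to 6, and 1 to 6 when 1 library was left out. In the overexpression experiment 1 higher became 2 with length and GC correction and 3 less the median. The 3 lower became 7 with library totals, 6 with DESeq2, 1 each with TMM, voom, length and GC correction or less the median, and 0 to 3 when 1 library was left out. There, all genes split into 1386 higher and 844 lower, 861 and 1800 with library totals, 1270 and 135 with length and GC correction, 2851 and 317 less the median, and 1862 and 2221 with DESeq2. In the first knockdown DESeq2 called 356 and 468, and in the second the split was 442 and 707 in columns 1 to 6 and 1299 and 1356 in columns 7 to 12. No fold change of a called gene reversed. The cause of these changes was not tested. Low counts limit Srebf1 in Tet2 OE and Idi1 in the nuclei, which rest on as few as 6 reads.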
